A study of Mus musculus with 2 samples.

Results

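Calcium cycling in the sarcoplasmic reticulum was followed through 10 genes between 2 RNA sequencing libraries of embryonic mouse heart. They were chosen by symbol, and all 10 (Ryr2, Fkbp1b, Casq2, Trdn, Asph, Hrc, Jph2, Atp2a2, Pln and Sln) were found among the 29383 genes of the deposited table. Both libraries came from the heart apex at stage E12.5, each from 8 hearts combined. In the heterozygous control (Nkx2-5cre, Ezh2f/+) Ezh2 was floxed on 1 allele, in the mutant (Nkx2-5cre, Ezh2f/f) on both, and both groups carried Nkx2-5 Cre. The control can therefore itself lose 1 copy of Ezh2, the methyltransferase of Polycomb repressive complex 2, which writes a repressive histone mark. Nkx2-5 is active in the heart lineage, so recombination is not limited to muscle cells, and the labels do not say where the driver is inserted. With 1 library per genotype there is no replicate check and no test of the genotype, and every interval below is a 95% interval of counting error only.

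In a heart muscle cell, calcium that enters through the surface membrane opens the ryanodine receptor of the sarcoplasmic reticulum, and the calcium released there starts contraction. Inside the store calcium is held by calsequestrin, which triadin and junctin tether to the release channel, while junctophilin keeps the store close to the surface membrane. The pump SERCA2 returns calcium to the store, and phospholamban or, mainly in the atria, sarcolipin restrain the pump. In the embryonic heart this store is still developing, and calcium entry through the surface membrane is known to carry a larger share of the cycle than later.

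Depth was similar, at 13944617 reads for the control library and 14122579 for the mutant one. Levels are CPM, counts per 1000000 reads of the library, after TMM scaling (which sets libraries level by a trimmed mean over genes), and are not scaled for gene length unless stated. Ezh2 had 493 reads in the control library against 319 in the mutant one, a mutant-to-heterozygote ratio of 0.601 (0.521 to 0.694). All 10 cardiomyocyte markers were abundant, with summed levels of 40200 CPM (heterozygote) and 41383 CPM (mutant). Endothelial and endocardial markers (945 and 906 CPM) and erythroid markers (4281 and 3405 CPM) were present too, so the tissue was not muscle alone, although the labels call the cells cardiomyocytes. Skeletal muscle markers summed to 3.55 and 4.60 CPM, with no read of Myf5 or Pax7.

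Of the 10 genes, 3 were lower in the mutant library while the pump and the release channel were not. Pln, Trdn and Casq2 had mutant-to-heterozygote ratios of 0.591, 0.644 and 0.667. The other 6 genes that reached 1 CPM in either library lay between 0.900 (Asph) and 1.18 (Fkbp1b). Sizes were judged on a log2 ratio with 1 CPM added to each level. On that scale 3 of 9 members had a ratio of 0.8 or less, where 10.7% of the 16185 tested genes did. None of the 9 was higher by the same factor (the inverse of 0.8), where 12.4% of tested genes were. Below, a gene past a ratio of 0.8 is one at least this far from 1 in the direction named. At 1.5-fold, 2 of 9 were lower (Pln and Trdn), against 1.88% of tested genes, and 0 were higher, against 3.45%. Casq2 lay just outside this size, with a log2 ratio of -0.58. No member was 2-fold apart, where 0.173% of tested genes were lower and 0.605% higher by that size. All members but Fkbp1b and Sln averaged 100 CPM or more, and of the 1706 genes at that level 9.91% had a ratio of 0.8 or less and 0.938% were 1.5-fold lower. The median log2 ratio of the 9 members was -0.08, beside -0.008 over all tested genes. Sln stayed under 1 CPM in both libraries and is in none of these counts.

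**Figure D1:**
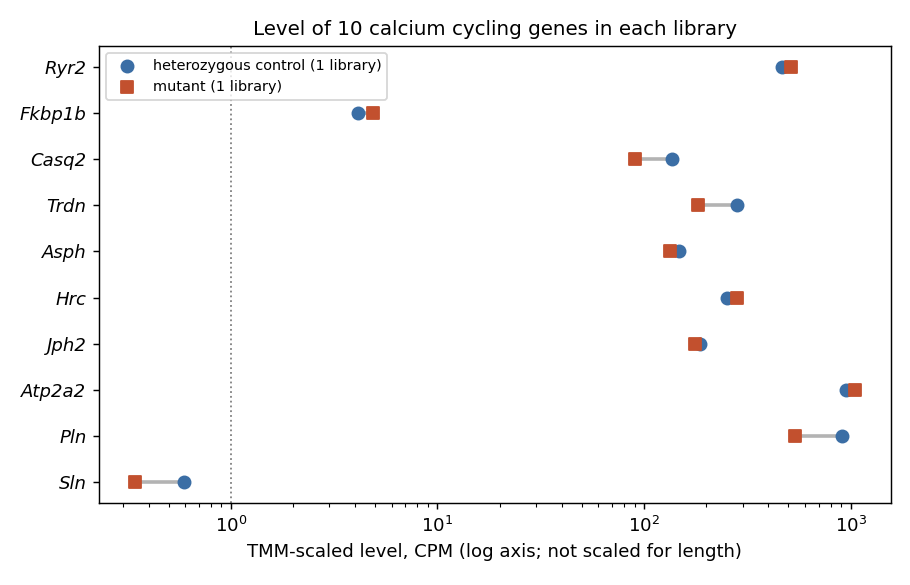
TMM-scaled level in CPM (log axis) of the 10 genes, with 1 point per library for the heterozygous control and the mutant and a dotted line at 1 CPM. The widest gaps above that line are those of Pln (907 and 536 CPM), Trdn (282 and 182) and Casq2 (136 and 90.8).

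Pln and Casq2, 2 of the lower genes, and the release channel gene Ryr2 were picked with their ratios known. Differences between the windows upstream of them therefore say nothing about the ratios. The log2 ratio of Ryr2, 0.14, was 0.01 after removal of the trend with GC content described below. The windows just upstream of these genes are shown here. They are the 250 bases before the start in the RefSeq promoter table (build GRCm38.p6), each on the strand of its gene, at chr10:53337436-53337685 (plus strand) for Pln, chr3:102086165-102086414 (plus strand) for Casq2 and chr13:12106946-12107195 (minus strand) for Ryr2. Capitals mark each match, on either strand, to the MEF2 motif, the CArG box, the E-box core CANNTG, the NKX-type site TNAAGTG, the TEAD-type site CATTCC, the GATA-type site AGATAA and the TATA box TATAAA.
Pln: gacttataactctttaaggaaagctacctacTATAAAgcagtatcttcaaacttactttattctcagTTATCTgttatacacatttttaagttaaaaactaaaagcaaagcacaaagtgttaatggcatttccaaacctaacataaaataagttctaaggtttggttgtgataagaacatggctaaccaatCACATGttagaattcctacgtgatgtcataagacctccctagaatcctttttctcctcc
Casq2: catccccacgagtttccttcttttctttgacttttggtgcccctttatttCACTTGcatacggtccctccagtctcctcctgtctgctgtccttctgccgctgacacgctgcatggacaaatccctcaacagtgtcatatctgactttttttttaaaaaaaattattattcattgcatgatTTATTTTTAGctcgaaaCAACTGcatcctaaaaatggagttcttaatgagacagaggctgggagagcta
Ryr2: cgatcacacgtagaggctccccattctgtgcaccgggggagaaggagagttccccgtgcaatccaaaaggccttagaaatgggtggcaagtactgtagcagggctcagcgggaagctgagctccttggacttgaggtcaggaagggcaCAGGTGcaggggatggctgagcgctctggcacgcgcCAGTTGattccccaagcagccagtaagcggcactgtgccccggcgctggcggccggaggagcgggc

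Casq2 held 1 match to the motif of MEF2, a muscle transcription factor, 69 to 60 bases before the start, with an E-box core on either side of it. Of all 32851 windows of this length in the table, 2.92% held the MEF2 motif and 66.2% an E-box core. Pln held the letters TATAAA 219 to 214 bases before the start, the GATA-type site on the other strand and 1 E-box core. Of all windows, 12.4%, 9.99% and 66.2% held these, and a match to TATAAA anywhere in the window does not make it the TATA box of the gene. Ryr2 held 2 E-box cores and none of the other motifs. The CArG box and the NKX-type and TEAD-type sites, held by 1.47%, 10.1% and 12.6% of all windows, were in none of the 3 windows shown. The windows also differed in CpG content, with 1 CpG in that of Pln, 5 in that of Casq2 and 14 in that of Ryr2, beside a median of 6 over all windows. Of the 10 genes, 6 had an entry. Hrc had 3 CpG, the overlapping windows of Jph2 5 and 6, and Fkbp1b 17. A match describes letters in this window, and no relation of motifs or CpG content to the ratios was tested.

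The release channel gene was slightly higher in the mutant library. Ryr2 (chromosome 13, 11645370 to 12199212), the ryanodine receptor of heart muscle, had 6314 (heterozygote) and 7504 reads (mutant), or 467 and 515 CPM. Its ratio was 1.10 (1.07 to 1.14). Fkbp1b encodes calstabin-2, a small protein bound to this channel. It had only 56 and 71 reads, or 4.14 and 4.88 CPM. Its ratio of 1.18 had a counting interval from 0.818 to 1.70, so no difference was detectable at this depth. A second model inside it on the same strand, FKBP1b-B, had 42 and 56 reads and can share them.

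Among the proteins inside the store and its junction, Casq2 and Trdn lay below a ratio of 0.8, while Asph and Hrc lay closer to 1, on opposite sides of it. Casq2 (chromosome 3, 101890568 to 101950172), calsequestrin of heart muscle, had 1842 reads against 1322 in the mutant. Its level was 136 CPM against 90.8, a ratio of 0.667 (0.621 to 0.716). Trdn (chromosome 10, 32803346 to 32953798), the tether triadin, had 3821 and 2649 reads, or 282 and 182 CPM, a ratio of 0.644 (0.613 to 0.677). Calsequestrin and its tether thus differed in the same direction and by similar ratios, and their intervals overlapped. Asph, whose locus makes junctin beside an aspartyl hydroxylase, had 1999 and 1936 reads (148 and 133 CPM). Its ratio was 0.900 (0.845 to 0.958), an interval below 1, and gene counts do not separate its products. Hrc, the histidine-rich calcium-binding protein of the store, had 3400 and 4091 reads (251 and 281 CPM). It was higher in the mutant library at 1.12 (1.07 to 1.17), opposite to calsequestrin. Jph2, the junctophilin of heart muscle, had 2516 and 2563 reads (186 and 176 CPM), a ratio of 0.947 with an interval that included 1 (0.896 to 1.0005).

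At the pump, the inhibitor was lower and the pump itself was not. Atp2a2 (chromosome 5, 122903523 to 122951904), which encodes SERCA2, had 12870 reads against 15218 in the mutant. Its level was 951 CPM against 1045, a ratio of 1.10 (1.07 to 1.12). Pln (chromosome 10, 53057513 to 53065787), phospholamban, had 12275 and 7808 reads, or 907 and 536 CPM. Its ratio of 0.591 (0.574 to 0.608) was the lowest of the 9 members at or above 1 CPM. Of the 1706 genes that averaged 100 CPM or more, 6 had a lower log2 ratio than Pln, 10 a lower one than Trdn and 17 a lower one than Casq2. These ranks are from before removal of the trend with GC content described below and were not recomputed after it. With that removal the log2 ratios of Pln, Trdn and Casq2 were -0.50, -0.42 and -0.49. The 5 lowest of the 1706 genes as measured were Ckm (log2 ratio -1.13), Mb (-1.13), Hbb-b1 (-1.05) and 2 mitochondrial tRNA genes. Ckm and Mb encode creatine kinase and myoglobin of muscle, and Hbb-b1 an adult globin. Sln, sarcolipin, had 8 reads against 5 in the mutant, 0.591 and 0.343 CPM. Its ratio of 0.581 (0.149 to 2.01) shows no detectable difference at this depth.

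**Figure D2:**
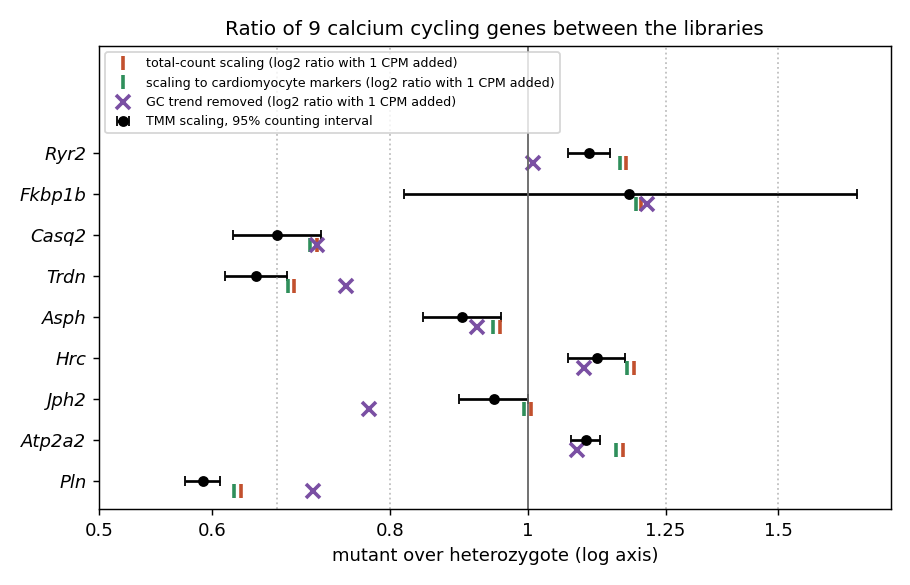
Ratio of mutant to heterozygote (log axis) of the 9 genes that reached 1 CPM, with 95% counting intervals under TMM scaling (black) and, as marks without intervals, the values under total-count scaling, scaling to cardiomyocyte markers and removal of the trend with GC content; dotted lines mark ratios of 0.8 and 1.5-fold lower, and their inverses. Pln, Trdn and Casq2 lie left of 0.8 under all 4, and Jph2 does so only after removal of the GC trend.

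The difference between inhibitor and pump does not depend on how the libraries are scaled, because both genes are read within 1 library. There were 95.4 reads of Pln for every 100 of Atp2a2 in the heterozygote and 51.3 in the mutant, a change of 0.538-fold (0.518 to 0.558). Reads of Trdn per 100 of Ryr2 went from 60.5 to 35.3 (0.583-fold, 0.549 to 0.620), and those of Casq2 from 29.2 to 17.6 (0.604-fold, 0.558 to 0.653). Reads of the tether and of the store protein were thus both fewer per read of the release channel. As measured, Jph2 per Ryr2 changed less, from 39.8 to 34.2 reads per 100 (0.857-fold, 0.803 to 0.915). Fkbp1b per Ryr2 changed 1.07-fold, with an interval from 0.740 to 1.55, and Sln per Atp2a2 0.529-fold, from 0.136 to 1.83, so neither could be told from 1.

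Summed over all 10 genes the libraries held 45101 and 43167 reads, a ratio of 0.889 (0.878 to 0.901). Pln made up 27.2% of them in the control library and 18.1% in the mutant one. Without Pln the ratio of the sum was 1.001 (0.986 to 1.02). The 3 lower genes together had a ratio of 0.610 and the other 6 tested genes one of 1.07. These last 2 sums follow from sorting the genes by their ratio.

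Shares and ratios of reads between genes, as in the sums and pairs above, are not scaled for length and serve only to compare the libraries. Levels of different genes were therefore compared per kilobase of the longest GENCODE transcript. On that scale Pln was the highest of the 10 in both libraries, with 389 CPM per kb in the heterozygote and 230 in the mutant. Atp2a2 followed with 168 and 184, and Hrc with 104 and 117. The excess of Pln over Atp2a2 transcripts per length was thus 2.32 in the heterozygote and 1.247 in the mutant. In the heterozygote Trdn (62.6), Casq2 (53.3), Jph2 (44.2), Ryr2 (27.8) and Asph (22.1) formed the middle of the order. Fkbp1b (4.24) and Sln (0.449) were lowest. In the mutant Jph2 (41.8) and Trdn (40.3) stood side by side, followed by Casq2 (35.5) and Ryr2 (30.7). The order below Pln depends on the transcript used. With the median length of coding transcripts, Trdn in the heterozygote had 260 CPM per kb, above Atp2a2 (225) and Hrc (167). Ryr2 then had 94.8. The size of the excess of Pln over Atp2a2 depends on this length too, with 730 against 225 in the heterozygote and 431 against 247 in the mutant. Pln remained highest and Sln and Fkbp1b lowest with either length.

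**Figure D3:**
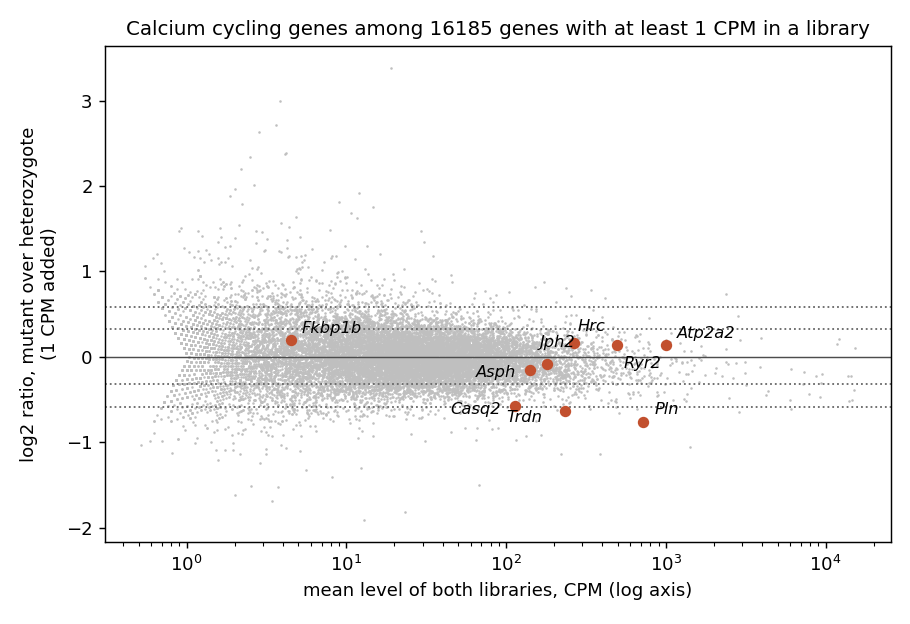
Log2 ratio of mutant to heterozygote (1 CPM added) against the mean level in CPM (log axis) for the 16185 tested genes (grey) and the 9 members that reached 1 CPM (labelled); dotted lines mark ratios of 0.8 and 1.5-fold lower, and their inverses. Pln, Trdn and Casq2 lie at the lower edge of the cloud for their level, and the other members lie between the inner lines.

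Values of other cell types and of the chambers stood beside these ratios. In bulk tissue, fewer cells of a type and less RNA per cell cannot be told apart. The 10 cardiomyocyte markers had log2 ratios from -0.22 to 0.48 with a median of -0.07, and 4 were above 0. When the libraries were scaled to the median of these markers, the log2 ratios of Pln, Trdn and Casq2 were -0.69, -0.56 and -0.51. The 3 genes were thus lower relative to the median of these 10 markers too. Under total-count scaling Pln alone was 1.5-fold lower, 1 of 9 against 1.17% of genes. The 4 ventricular markers summed to 18405 and 16083 CPM, a ratio of 0.874. Myl2 (15440 and 13244 CPM) made up most of this sum, while 2 of the 4 were above 0 and Irx4 was higher at 1.27. The 6 genes listed as atrial markers summed to 4262 and 5105 CPM, a ratio of 1.20, with 3 of 6 above 0. Both libraries came from the heart apex, and Sln was under 1 CPM in each. The sum therefore does not show that atrial cells were present. Myl7 (1775 and 2961 CPM, a ratio of 1.67) carried the higher sum, while Myl4 (2418 and 2072 CPM) was lower at 0.857. The 4 conduction system markers summed to 88.9 and 145 CPM, a ratio of 1.63, with 4 of 4 above 0. Cacna2d2 (65.0 and 77.3 CPM, a ratio of 1.19) made up most of the heterozygote sum, and the other 3 had higher ratios. These were 2.89 for Hcn4 (205 and 638 reads, 2.47 to 3.40) and 2.67 for Tbx3 (100 and 287 reads, 2.12 to 3.38). Shox2 was scarce (18 and 55 reads, 1.33 and 3.78 CPM), with a ratio of 2.84 (1.64 to 5.14). Summed erythroid markers had a ratio of 0.796, carried by Hbb-y (2884 and 2074 CPM), while Hba-x was at 0.983. The median log2 ratio of the 5 erythroid markers tested was -0.22, with 1 above 0, and 0.06 after removal of the trend with GC content described next. With that removal Hbb-y went from -0.48 to -0.21, while Alas2 (ratio 0.630) hardly moved, from -0.65 to -0.66. The part of chamber and conduction cells in the ratios of the calcium cycling genes was not tested.

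Log2 ratios in this pair of libraries followed the GC content of the transcript, and the members differ in it. The median log2 ratio of all tested genes went from -0.18 in the bin centred at 39.3% GC to 0.18 in the bin centred at 60.3%. Pln (38.6%) and Trdn (36.8%) lie low on this scale, Casq2 (47.2%), Atp2a2 (48.2%) and Ryr2 (49.6%) near its middle, and Jph2 (61.8%) high. After a quadratic trend on GC content and length was removed, the log2 ratio of Pln went from -0.76 to -0.50, that of Trdn from -0.63 to -0.42 and that of Casq2 from -0.58 to -0.49. These 3 genes remained below a ratio of 0.8. Jph2 then joined them, going from -0.08 to -0.37, which made 4 of 9 against 6.41% of genes, while 0 of 9 were 1.5-fold lower against 1.20%. Ryr2 went from 0.14 to 0.01. The change of Pln per Atp2a2 was then 0.652-fold, and those of Casq2, Trdn and Jph2 per Ryr2 were 0.705-fold, 0.739-fold and 0.767-fold.

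**Figure D4:**
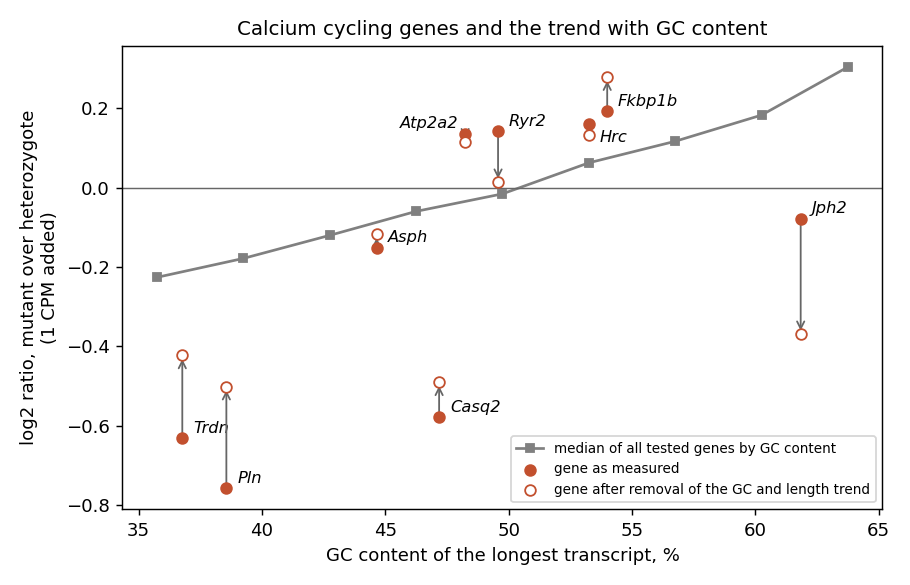
Log2 ratio of mutant to heterozygote against GC content of the longest transcript for 9 genes, as measured (filled) and after removal of the trend on GC content and length (open), with the median of all tested genes in bins of GC content (grey squares). Pln, Trdn and Casq2 lie below the grey line as measured and stay below -0.4 afterwards, and Jph2 moves from -0.08 to -0.37.

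Paralogs of the 10 genes were mostly scarce, and 1 was lower. Of 9 listed, 6 reached 1 CPM, with a median log2 ratio of 0.20. Past a ratio of 0.8, 1 was lower and 3 were higher, where 10.7% and 12.4% of all tested genes were. Jph1, the junctophilin of skeletal muscle, had 97 reads against 48 in the mutant, a ratio of 0.460 (0.318 to 0.656), which is farther from 1 than that of Jph2. Casq1, the calsequestrin of skeletal muscle, had 1132 and 1534 reads, or 83.7 and 105 CPM. Its ratio of 1.26 (1.17 to 1.36) was opposite to that of Casq2. The 2 calsequestrin genes together had 2974 and 2856 reads, a ratio of 0.892 (0.847 to 0.940), and the share of Casq2 in these reads, not scaled for length, was 61.9% (heterozygote) and 46.3% (mutant). The pump paralogs Atp2a1 (22 and 37 reads) and Atp2a3 (33 and 57) stayed under 4 CPM. Fkbp1a, the abundant relative of Fkbp1b, had 197 and 199 CPM, a ratio of 1.01 (0.960 to 1.07).

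Other proteins of the calcium store did not share the lower level. Of 16 listed, 16 were tested, and their median log2 ratio was 0.0001. In either direction 0 were past a ratio of 0.8, where 10.7% of all tested genes were lower and 12.4% higher. The calcium-binding chaperone calreticulin (Calr) had a ratio of 1.05 (1.02 to 1.08) and Hsp90b1 one of 0.930 (0.904 to 0.957). Regulators of the channel and the pump had a median of -0.02. Past a ratio of 0.8, 1 of 24 was lower and 2 were higher, beside the same shares of all tested genes. The lower one was Calm2, 1 of 3 calmodulin genes, at 0.690 (0.657 to 0.723). Its log2 ratio went from -0.53 to -0.26 with the GC trend removed, short of a ratio of 0.8. The higher ones were Pde3a, a phosphodiesterase that breaks down cyclic AMP, at 1.73 (1.51 to 1.99), and Camk2b, a calmodulin-dependent kinase, at 1.46 (1.02 to 2.09). Camk2b had only 53 and 83 reads, while the more abundant Camk2a, Camk2d and Camk2g were at 0.996, 0.971 and 0.983.

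Genes of calcium movement across the surface membrane went both ways. Of 13 tested, 4 were higher and 1 lower past a ratio of 0.8, where 12.4% and 10.7% of all tested genes were. Of these 4, Atp2b2 passed the filter of 1 CPM only through the mutant library, so its place in the count carries no weight. The median log2 ratio of the 13 was 0.16. That median was 0.07 with the GC trend removed and also 0.07 with a floor of 5 CPM. The T-type calcium channel genes Cacna1h and Cacna1g had ratios of 1.70 (1.58 to 1.83) and 1.82 (1.37 to 2.44). Cacna1d, an L-type channel gene of pacemaker cells, had one of 1.55 (1.31 to 1.84). With the GC trend removed, the log2 ratios of Cacna1h, Cacna1g and Cacna1d were 0.45, 0.49 and 0.51, short of 1.5-fold. Cacna1h had 1045 reads against 1911 in the mutant. The plasma membrane pump gene Atp2b2 had 0 reads against 26 in the mutant, where it reached only 1.79 CPM. Set against a floor of 3 counts in the heterozygote, this is 8.05-fold, which is no lower bound. The counting interval of its ratio begins at 6.10. The lower one, named because the count is small, was the store-operated channel gene Orai1 at 0.773 (0.604 to 0.988). The main cardiac L-type channel gene Cacna1c was at 0.961 (0.911 to 1.01). The sodium-calcium exchanger gene Slc8a1 had 24097 reads against 21099 in the mutant, a ratio of 0.814 (0.799 to 0.829). Cardiac transcription factors had a median of 0.18, or 0.03 after removal of the GC trend. Before that removal 12 of 14 were above 0, where 7897 of the 16185 tested genes were. Past a ratio of 0.8, 2 of 14 were higher and 0 lower, where 12.4% and 10.7% of tested genes were. The higher ones were Hand1 (1.44, 1.29 to 1.61) and Tbx5 (1.32, 1.20 to 1.46). With the GC trend removed their log2 ratios were 0.43 and 0.35, while Srf went from -0.14 to -0.44, lower past a ratio of 0.8.

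**Figure D5:**
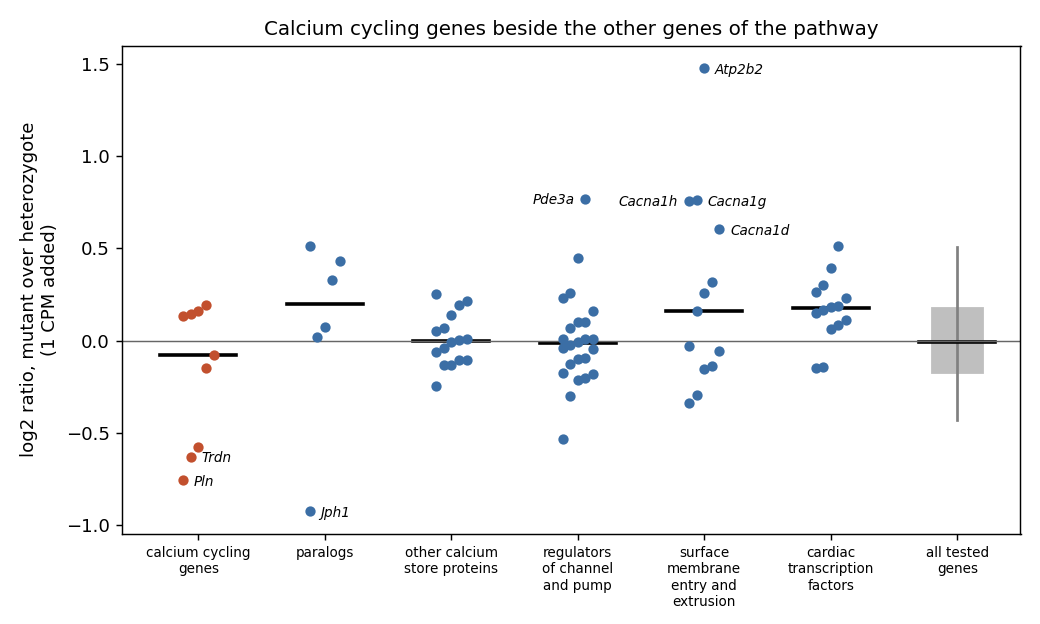
Log2 ratio of mutant to heterozygote (1 CPM added) for the tested members and 5 lists of related genes, with 1 point per gene and a bar at each median; for all tested genes the box spans the 25th to 75th percentile (-0.18 to 0.17), the line the 5th to 95th percentile (-0.43 to 0.51). Genes at least 1.5-fold apart before removal of the GC trend are labelled: Pln, Trdn and Jph1 are lower, and Pde3a, Cacna1d, Cacna1g, Cacna1h and Atp2b2 are higher. Atp2b2 had 0 reads in the heterozygote.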

How the data were processed

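RNA was sequenced from 1 library per genotype, each from pooled heart apex tissue, and per the labels' protocols the preparation kit covers full-length transcripts. The authors deposited whole-number read counts per gene model and CPM, which are counts per 1000000 reads of the library total, per the file headers; recomputed CPM matched to within 4.91e-11. The authors' ratio (heterozygote over mutant) and the deposited p-value, whose test is not named in the file headers, were not used. The sources used here do not give the aligner, the counter, its use of strand or the build. Gene coordinates are the files' own, with 1 added to the start.

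Rows of 1 symbol were summed (29383 genes), and CPM were recomputed with TMM factors of 0.970 and 1.03 (edgeR 4.0.16, R 4.3.3). The log2 ratio adds 1 CPM to each level, which understates differences of scarce genes. Genes that reached 1 CPM in either library were compared by size only and are called tested. Ratios are plain ratios of scaled counts with 95% exact conditional Poisson intervals, and changes of a pair are odds ratios with exact conditional intervals (SciPy 1.17.1). Without molecular identifiers, reads can repeat a molecule, so these intervals cover counting error only. The longest GENCODE M21 transcript gave GC content and length for 81.8% of tested genes and 10 of 10 members. The code for ratios and intervals was tested on simulated data with known folds, which is no test of the genotype. The members, lists and sizes were chosen with earlier results of these data known. Named genes are the members, Ezh2, the 5 lowest genes averaging 100 CPM or more, and from each list up to 4 genes past a ratio of 0.8 or its inverse or else the 2 most abundant; other genes named were chosen after their values were seen. Of the list and marker entries, Hba-a1 was not matched and Lyz2 matched a synonym.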

Additional observations from a re-analysis of the deposited data

How the results depend on the processing

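Pln, Trdn and Casq2 had a ratio of 0.8 or less under all 10 alternatives: 4 other scalings, pseudocounts of 0.1 and 5 CPM, a floor of 5 CPM, no filter, removal of the GC trend, and 1 row per symbol. Their log2 ratios ranged from -0.76 to -0.50, -0.63 to -0.42 and -0.58 to -0.49. The number at least 1.5-fold lower, 2 as reported, was 1 under total-count scaling, 1 under scaling to cardiomyocyte markers and 0 with the GC trend removed. The median of the members was 0.0084 under total-count scaling, which shifts all log2 ratios by 0.09. Jph2 ranged from -0.37 (GC trend removed) to 0.008 (total count), and Ryr2, Atp2a2 and Hrc stayed above 0, short of the inverse of 0.8. The median of the paralogs was 0.02 with a floor of 5 CPM. The alternative of an exonic length from the files was not run, since they give genomic spans; the median coding transcript was added after seeing the data. Depth limits Sln, Fkbp1b and most paralogs. No paired analysis was possible because each genotype has 1 library.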
